A study of Rattus norvegicus with 2 samples.

Results

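The genes described here are 10 rat genes of lipid droplets and fatty acid handling, chosen by name: the fatty acid-binding proteins Fabp3, Fabp4 and Fabp5, the droplet coat proteins Plin2 and Plin3, the triglyceride-forming enzymes Dgat1 and Dgat2, the lipase Pnpla2, the fatty acid receptor Cd36 and the secreted lipase Lpl. Probes were assigned through the RefSeq transcript each probe was designed on, and 9 of the 10 genes had a probe, out of 15159 genes with a named probe on the array. Total RNA came from the rat mammary tumour line RMT-1, clone E4, cultured in RPMI-1640 medium with 10% fetal bovine serum. Cells were transfected with a negative control siRNA or, transiently, with an siRNA against Pla2g4c, a cytosolic phospholipase A2, and each group was measured on 1 one-colour array, called the control array and the siPla2g4c array below. The time between transfection and RNA extraction was not given in the sources used here. A single array per group allows neither a replicate check nor a test, and the genes were proposed with earlier results of these arrays in view, so each value below is a description of these 2 arrays.

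Fatty acids taken up by a cell are bound by small cytosolic FABP proteins, activated to acyl-CoA and either oxidised or joined to glycerol as triglyceride. Dgat1 and Dgat2 catalyse the last step of triglyceride synthesis, and the product is stored in lipid droplets, organelles with a coat of perilipins that governs the access of lipases. Pnpla2, also known as ATGL, starts the breakdown of the stored triglyceride. In mammary epithelium droplet formation is best known from lactation, when droplets are secreted as milk fat.

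Of the 5 genes with a signal on both arrays, 4 lay above 0 in the siPla2g4c array, and 3 differed by more than their error. Of all measured named genes 49.0% lay above 0. Lists of related genes, described below, lay on both sides, with medians from -0.54 to 0.17. Pnpla2, Dgat2 and Plin2 were 2.38-fold, 1.99-fold and 1.80-fold higher, Dgat1 was level at 1.007-fold, and Fabp5 lay slightly below the control. Fabp4 stood well above background on siPla2g4c alone and was at least 11.2-fold higher, a nominal bound that was 2.56-fold under another background correction. Fabp3, Cd36 and Lpl had no spot well above background on either of them, and no probe could be matched to Plin3. In RNA of whole cultures, more RNA per cell and more cells expressing a gene cannot be told apart. Of the 5 genes measured on both arrays, 1 was higher by 2-fold or more and 0 were lower by that much, where 2.91% and 3.05% of all 9026 measured named genes were (5.96% in either direction). The genes were chosen with this contrast known, so nothing is read from that comparison.

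Each signal is the scanner software's processed signal of a spot, in linear intensity units after background subtraction. A level is log2 of that signal minus log2 of the array's 75th percentile, which was 852 for control and 1105 for siPla2g4c. A difference is the siPla2g4c level minus the control level, and its ± is the software's error, and it leaves out all variation between cultures. For bright spots the signal was about 10 times its error. The ± is thus near 0.20 for all such genes and is no observed spread. "Well above background" is the software's own flag for a spot. Apart from bounds and summed levels, levels of different probes are not compared with each other, because probes differ in how well they bind. A bound is taken against the lowest level of any probe well above background on the array where the gene is dim. That limit comes from other probes and is not a detection limit, so every bound is nominal.

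**Figure D1:**
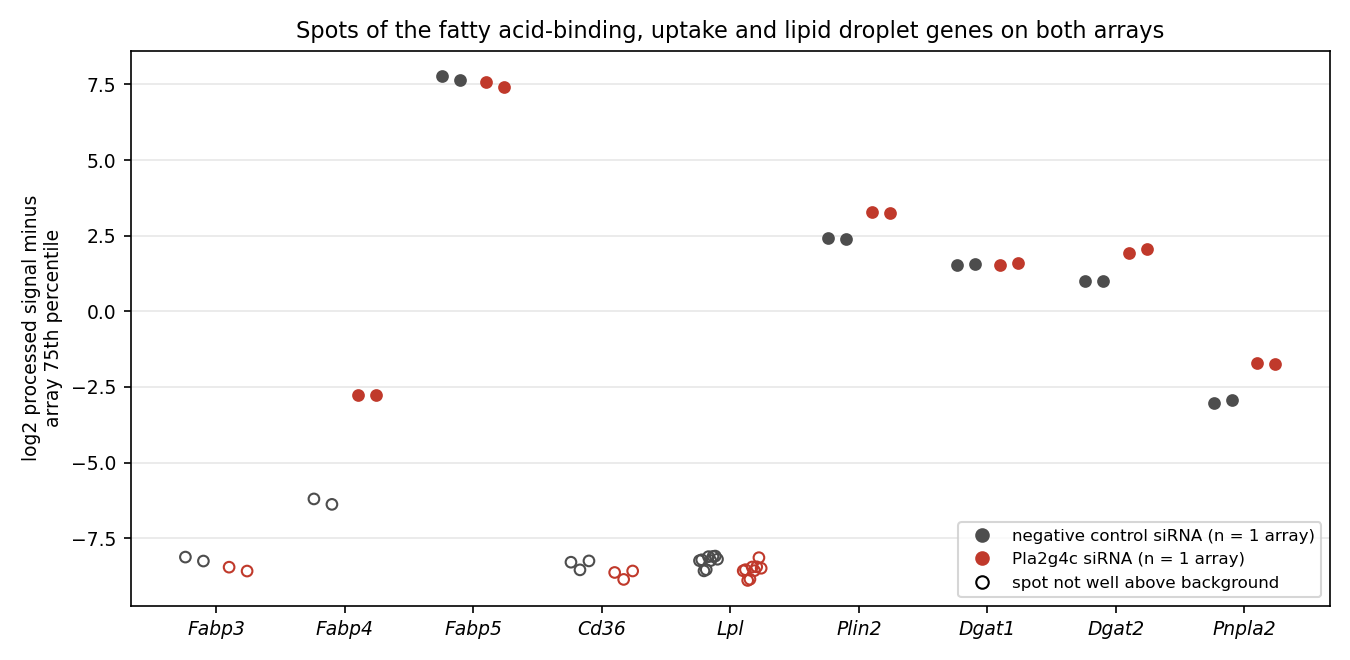
Level of every spot used, as log2 signal relative to its array's 75th percentile (vertical axis), for the 9 genes with a probe, with the negative control siRNA array in grey and the siPla2g4c array in red. Each point is 1 spot and open points were not well above background. Fabp4 is open on the control array near -6.29 and filled on the siPla2g4c array near -2.76, and Fabp3, Cd36 and Lpl are open on both arrays.

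Among the fatty acid-binding proteins, Fabp4 is the form best known from adipocytes and macrophages. Its 2 spots read 11.6 and 10.2 on the control array and 162 and 164 on the siPla2g4c array. Both control spots lay below every siPla2g4c spot, and neither was flagged as well above background, although their signals were larger than their errors of 2.92 and 2.55. The uncorrected median brightness of these spots was 47 and 43 against a local background of 33 and 29 on the control array, and 195.5 and 219.5 against 34 and 29 on the other. Because the control level is only a bound, the difference is given as at least 11.2-fold, or 3.48 on the log2 scale. The limit used is the lowest control-array level of the probes well above background, -6.24. It is no detection limit, since an unflagged Fabp4 control spot lay above it, at -6.20. The difference of that spot alone was 3.44, below the bound. The measured mean levels were -6.29 and -2.76, a difference of 3.53 ± 0.39. The bound leaves this error out and lies within it. The size of this bound depends on how background is handled, and under normexp correction with an offset of 50 it was at least 2.56-fold (1.36). Over the other scalings it ran from 3.48 to 4.03. A bound of at least 2-fold in this direction was reached by 73 genes, 0.482% of the 15159 with a named probe and 31.6% of the 231 genes with a bound on that side.

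Fabp5, the epidermal form, carries fatty acids in many epithelia. Its spots read 186945 and 169538 on the control array and 213711 and 188335 on the siPla2g4c array, far from the saturation value of 778492. Before scaling both siPla2g4c spots lay above both control spots, and after scaling both lay below them. The difference was -0.20 ± 0.20, no larger than its error. Its sign followed the scaling, with 0.34 under quantile normalization, 0.24 under cyclic loess, 0.34 under spike-in scaling and -0.07 in the authors' deposited table.

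Fabp3, the heart-type form that is also expressed in lactating mammary gland, read 3.06 and 2.79 on the control array and 3.15 and 2.88 on the siPla2g4c array. No spot exceeded its own error. Brightness before correction lay between 32 and 36 and the local background between 26 and 28, so no level and no difference could be given. The absence of signal was not unusual, since 34.1% of the genes with a named probe had no spot well above background on either array.

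Fabp4, Fabp5, Fabp9, Fabp12 and Pmp2 lie side by side on rat chromosome 2 in the GRCr8 annotation, in the order Fabp12, Fabp4, Fabp9, Pmp2, Fabp5. Fabp9, a testis form, had no spot well above background. Fabp12 read 16.7 to 21.8 on the control array, with both spots well above background, and 11.7 to 22.3 on the siPla2g4c array, with 1 of 2. Pmp2, a fatty acid-binding protein of myelin, had 2 probes with 3 spots, of which 2 were well above background, on siPla2g4c alone. The bound of at least 1.302-fold rests on 1 of the probes and was lost under normexp correction. The other probe was not well above background on either array. The nearest measured genes outside the cluster were Impa1 at -0.20 ± 0.20 on one side and Tpd52 at 0.09 ± 0.20 on the other. These flanking genes were picked for their position after the value of Fabp4 was known.

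The wider family of intracellular lipid-binding proteins, with the retinoid-binding members, held 12 further genes with a probe. Of these 7 had no spot well above background, beside the 34.1% of all genes, among them Fabp1 and Fabp2, the liver and intestinal forms. The 3 genes measured on both arrays were below 0, with a median of -0.38 beside -0.01 over all measured genes. Rbp2 read 15884 to 16280 for control and 17293 to 18469 for siPla2g4c, with a difference of -0.22 ± 0.20, and Rbp7 was at -0.38 ± 0.22. Under spike-in scaling both lay above 0, at 0.32 and 0.17. Crabp2, which delivers retinoic acid to the nucleus, read 1228 to 1238 on the control array and 724 to 801 on the siPla2g4c array, 2.10-fold lower (-1.07 ± 0.20). It was at -0.94 in the authors' deposited table and at -0.52 under spike-in scaling, short of 2-fold in both.

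Uptake at the cell surface was not visible through Cd36 or Lpl. Cd36, a scavenger receptor that takes up long-chain fatty acids and oxidised lipoproteins, had 2 probes with 3 spots. They read 2.28 to 2.80 on the control array and 2.38 to 2.88 on the siPla2g4c array, each below its error. The ratio of signal to error was 0.997 on every Cd36 spot. A control spot kept a signal of 2.72 although its brightness of 31 was below its local background of 32. These readings thus lie at the floor of the processed signal. Lpl, which releases fatty acids from circulating lipoproteins, had 1 probe in 10 spots, of which 1 was left out for an outlier flag. Over all 10 spots the lowest, median and highest were 2.23, 2.85 and 3.13 on the control array and 2.32, 2.94 and 3.91 on the siPla2g4c array. The ranges overlapped on both genes, which near the floor says nothing of a difference, and none was detectable at this signal.

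Among partners of Lpl, Angptl4 was the gene at 2-fold. Angptl4, a secreted inhibitor of Lpl and a known target of PPAR receptors, read 96.0 and 100.1 on the control array and 455 and 505 on the siPla2g4c array. It was 3.77-fold higher (1.91 ± 0.21), and its difference ran from 1.38 under normexp correction to 2.46 under spike-in scaling. Of the 15 partners and related lipases 13 had a probe and 6 were measured, 4 of them above 0, with a median of 0.13. Apoa5, an apolipoprotein that enhances lipolysis by Lpl, was well above background on the control array only and was at least 2.87-fold lower. That bound was 1.51-fold under normexp correction and 1.97-fold under spike-in scaling. Gpihbp1, the endothelial anchor of Lpl, had no spot well above background.

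Of 10 scavenger receptors besides Cd36, 4 were measured, 2 above and 2 below 0. Scarb1, the high-density lipoprotein receptor of the same class as Cd36, was at 0.34 ± 0.20 and Scarb2 at 0.03 ± 0.21, both named after their values were seen. Scara5, a ferritin receptor, was 2.84-fold lower (-1.504 ± 0.28), and its 2 probes, 1 spot each, gave -1.53 and -1.48. Scarf1, an endothelial scavenger receptor, was 2.15-fold lower (-1.11 ± 0.27). Its spots read 29.4 and 52.8 on the control array and 23.1 and 24.4 on the siPla2g4c array, so it was dim on both. Under normexp correction Scara5 was at -1.03 and Scarf1 at -0.59, and under spike-in scaling at -0.96 and -0.56.

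Fatty acid transporters and acyl-CoA synthetases held 13 measured genes of 17, with 5 above 0, a median of -0.16 and 0 at 2-fold. Acsl4, which activates arachidonic acid, was highest at 0.60 ± 0.20. Dbi, the acyl-CoA-binding protein, was lowest at -0.96 ± 0.20, with spots at 108705 and 111526 on the control array and 73239 and 74084 on the siPla2g4c array. It was at -0.39 under quantile normalization and -0.41 under spike-in scaling.

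Plin2, also known as adipophilin, coats the droplets of most cell types and is degraded when it is not bound to lipid. Its 2 spots read 4542 and 4466 on the control array and 10647 and 10444 on the siPla2g4c array. Every siPla2g4c spot lay above every control spot, and the spots of a probe differed far less than the arrays did. The difference was 0.85 ± 0.20 on the log2 scale, and 4.25% of measured genes had a larger one. It ran from 0.85 to 0.98 over all scalings except spike-in scaling, which gave 1.40. Such a separation of spots is common on these arrays: 77.5% of measured probes with at least 2 spots did not overlap between them, and 37.8% lay wholly higher in the siPla2g4c array. It held for 4 of the 5 genes measured, with Dgat1 the exception and Fabp5 in the lower direction.

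Pnpla2 removes the first fatty acid from stored triglyceride. Its spots read 105 and 111 on the control array and 339 and 328 on the siPla2g4c array. Both siPla2g4c spots lay above both control spots, as in 37.8% of measured probes with at least 2 spots. The difference of 1.25 ± 0.21 was exceeded by 1.84% of measured genes. It fell short of 2-fold under normexp correction, at 0.90, and reached 1.38 in the authors' deposited table and 1.80 under spike-in scaling.

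Promoter windows were at hand for 5 of the 10 genes, and those of Plin2 and Pnpla2 are shown because both genes had a higher signal in the siPla2g4c array. They hold the 250 bases before the annotated start, 5′ to 3′ on the coding strand, from RefSeq on GRCr8: chr5:106229019-106229268, minus strand, for the more upstream of 2 Plin2 starts, and chr1:205982029-205982278, plus strand, for Pnpla2. Capitals mark matches to the motifs searched on both strands.
Plin2: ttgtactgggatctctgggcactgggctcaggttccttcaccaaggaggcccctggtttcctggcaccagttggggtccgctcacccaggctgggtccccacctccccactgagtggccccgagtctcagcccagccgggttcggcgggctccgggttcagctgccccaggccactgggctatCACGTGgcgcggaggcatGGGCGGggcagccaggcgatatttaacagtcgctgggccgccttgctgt
Pnpla2: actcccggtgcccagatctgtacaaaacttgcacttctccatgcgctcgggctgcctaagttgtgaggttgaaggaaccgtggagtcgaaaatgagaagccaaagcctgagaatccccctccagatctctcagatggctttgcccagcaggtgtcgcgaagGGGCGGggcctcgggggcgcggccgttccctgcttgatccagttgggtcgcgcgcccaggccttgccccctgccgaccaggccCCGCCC
The capitals in Plin2 are an E-box (CACGTG) and a GC box (GGGCGG), and those in Pnpla2 are 2 GC boxes, 1 on each strand. A GC box occurs in 30.5% and this E-box in 5.59% of all 33469 promoter windows of that length. The other motifs searched were the AP-1 site TGANTCA, the cAMP response element TGACGTCA, the CCAAT box, the TATA box TATAAA, the NF-kB consensus, the nuclear receptor hexamer AGGTCA, and the PPAR response element, searched as 2 copies of that hexamer with 1 base between them. Neither the hexamer, found in 14.1% of windows, nor the PPAR response element, found in 0.0508%, had a match in the windows of Fabp3, Plin2, Plin3, Pnpla2 or Cd36. The Cd36 window held a TATA box, a motif of 12.9% of windows. A match is a run of letters and not a shown binding site, and a missing one says nothing of the factor. GC content was 67.2% in the Plin2 window shown and 63.6% in that of Pnpla2, beside a median of 51.2% over all windows. The window of the other Plin2 start held 47.2% GC and 0 motif matches.

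**Figure D2:**
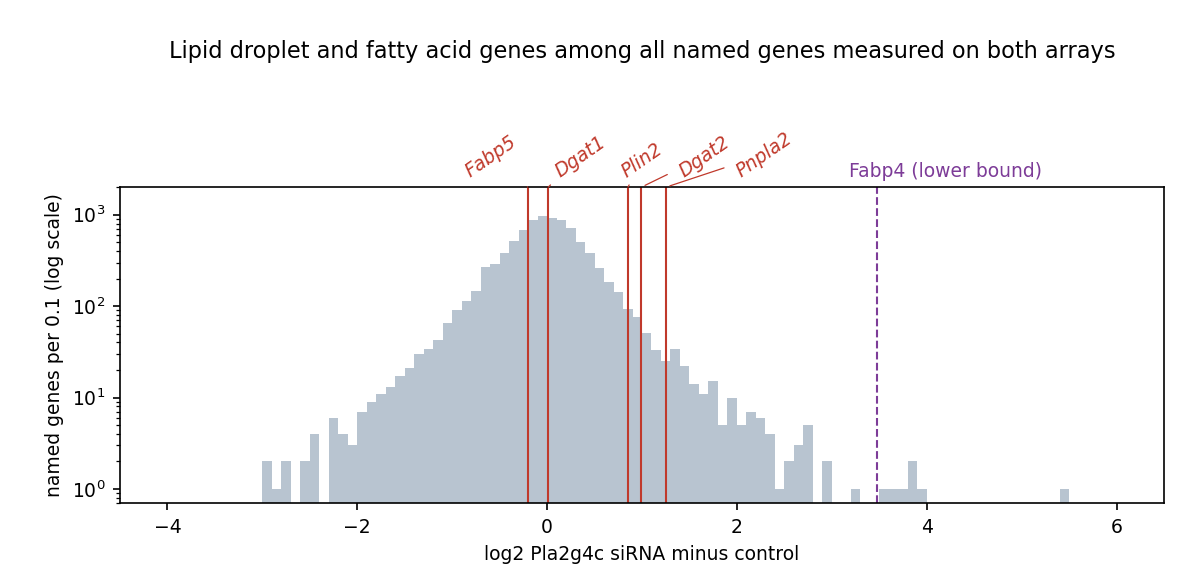
Histogram of the difference of all 9026 named genes measured on both arrays, on the log2 scale (horizontal axis), with the number of genes per 0.1 on a log axis. Red lines mark the 5 genes measured, from Fabp5 at -0.20 to Pnpla2 at 1.25, and the dashed line marks the lower bound of Fabp4 at 3.48, which is not part of the histogram.

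The other coat and assembly proteins of droplets lay on both sides of 0. Of 18 genes 14 had a probe and 10 were measured, with 0 at 2-fold in either direction. Above 0 lay 3 of the 10, beside 49.0% of all measured named genes. Their median was -0.27, and 0.28 under spike-in scaling. Mettl7a, a methyltransferase-like droplet protein, was lowest at -0.83 ± 0.21, and its 2 probes gave -0.89 and -0.77. Hsd17b11, a droplet-associated dehydrogenase, was highest at 0.28 ± 0.20. Bscl2, seipin, which shapes nascent droplets, was at -0.26 ± 0.20. Plin5 and Cidea had no spot well above background. Cidec, a protein of large adipocyte droplets, read 2.72 and 2.92 on the control array and 14.6 and 20.7 on the siPla2g4c array, where 1 of 2 spots was well above background. Bscl2 and Cidec were named after their values were seen.

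The enzymes that make triglyceride differed from each other. Dgat2 read 1706 and 1716 on the control array and 4243 and 4597 on the siPla2g4c array. Its spots did not overlap between the arrays, like those of 77.5% of measured probes with at least 2 spots. Its difference was 0.99 ± 0.20, just under 2-fold, and 3.002% of measured genes had a larger one. It ran from 0.99 to 1.12 over the alternatives other than spike-in scaling, which gave 1.54, so whether Dgat2 counts as 2-fold changes with the scaling. Dgat1, which catalyses the same reaction but is unrelated in sequence, read 2469 and 2533 on the control array and 3228 and 3312 on the siPla2g4c array. After scaling its spots overlapped, and the difference was 0.01 ± 0.20. The unscaled signals of all 5 genes were higher in the siPla2g4c array on average, as was that array's 75th percentile.

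Besides Dgat1 and Dgat2, the enzymes of glycerolipid and sterol ester synthesis had 12 of 17 genes measured, 8 above 0, with a median of 0.17 and 0 at 2-fold. Lpin2, a phosphatidate phosphatase, was highest at 0.69 ± 0.29. It was dim, at 21.6 to 25.9 on the control array and 48.3 to 50.9 on the siPla2g4c array, and normexp correction put it at 0.02. Agpat3, an acyltransferase, was lowest at -0.74 ± 0.21, but its 2 probes disagreed, at -1.45 and -0.03.

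Around Pnpla2, 8 of 12 lipolysis genes were measured, 5 above 0, with a median of 0.17 that was -0.04 under normexp correction, and 0 at 2-fold. Mgll, which completes the breakdown by cleaving monoglyceride, was highest at 0.80 ± 0.20, with 306 and 332 on the control array and 676 and 762 on the siPla2g4c array. Abhd6, another monoglyceride lipase, was lowest at -0.95 ± 0.21. Abhd5, the activator of Pnpla2, was at 0.35 ± 0.21. G0s2, the inhibitor of Pnpla2, and Lipe, hormone-sensitive lipase, had no spot well above background on either array. Abhd5, G0s2 and Lipe were named after their values were seen.

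**Figure D3:**
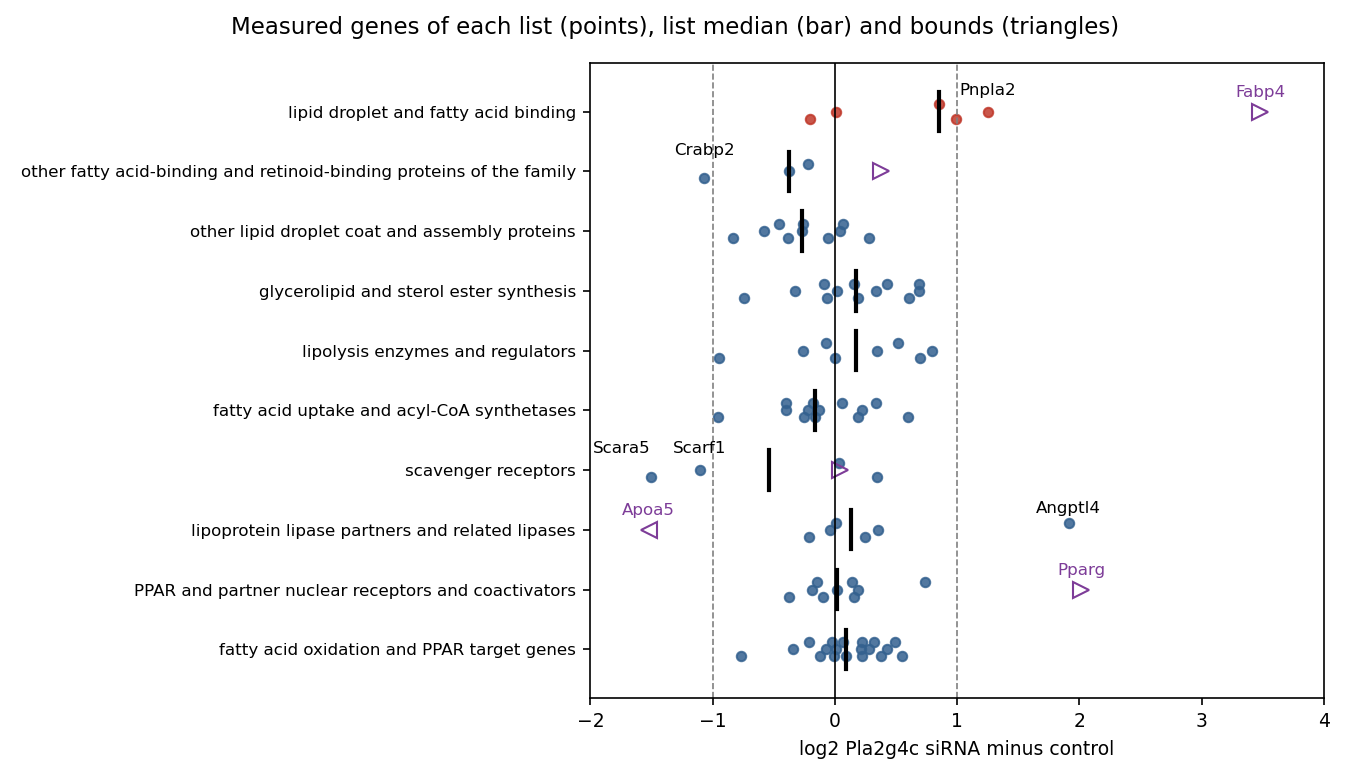
Difference of each measured gene (points) on the log2 scale for the lipid droplet and fatty acid binding genes, in red, and 9 lists of related genes, in blue, with the list median as a black bar and genes with a bound as triangles. Dashed lines mark 2-fold. Angptl4 at 1.91 and Pparg with a lower bound of 2.02 stand at the right of lists whose medians are 0.13 and 0.02.

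PPAR receptors are nuclear receptors for fatty acids, and Fabp4, Plin2, Angptl4, Cd36 and Lpl are textbook targets of them. Pparg, the form that drives adipocyte differentiation, read 3.64 and 8.54 on the control array and 55.3 and 63.2 on the siPla2g4c array. It was well above background on siPla2g4c alone and was at least 4.05-fold higher, a bound that was 1.33-fold under normexp correction. Ppara was highest of the measured receptors and coactivators at 0.74 ± 0.33, with 0.03 under normexp correction. Mlxipl, a carbohydrate-responsive transcription factor, was lowest at -0.38 ± 0.40. The 9 measured genes of this list had a median of 0.02, with 5 above 0 and 0 at 2-fold.

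Fatty acid oxidation and further PPAR targets had 19 of 27 genes measured, 12 above 0, with a median of 0.09 and 0 at 2-fold. Eci2, an enoyl-CoA isomerase, was highest at 0.55 ± 0.20 and Hadh, a hydroxyacyl-CoA dehydrogenase, lowest at -0.76 ± 0.20. Pdk4, also a PPAR target, had no spot well above background. Over all 9 lists, 1 of the 84 genes measured was higher by 2-fold or more and 3 were lower by that much, with a median of 0.01. Of all measured named genes 2.91% were higher and 3.05% lower by 2-fold or more. The counts of 0 at 2-fold in single lists stand beside the same shares.

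**Figure D4:**
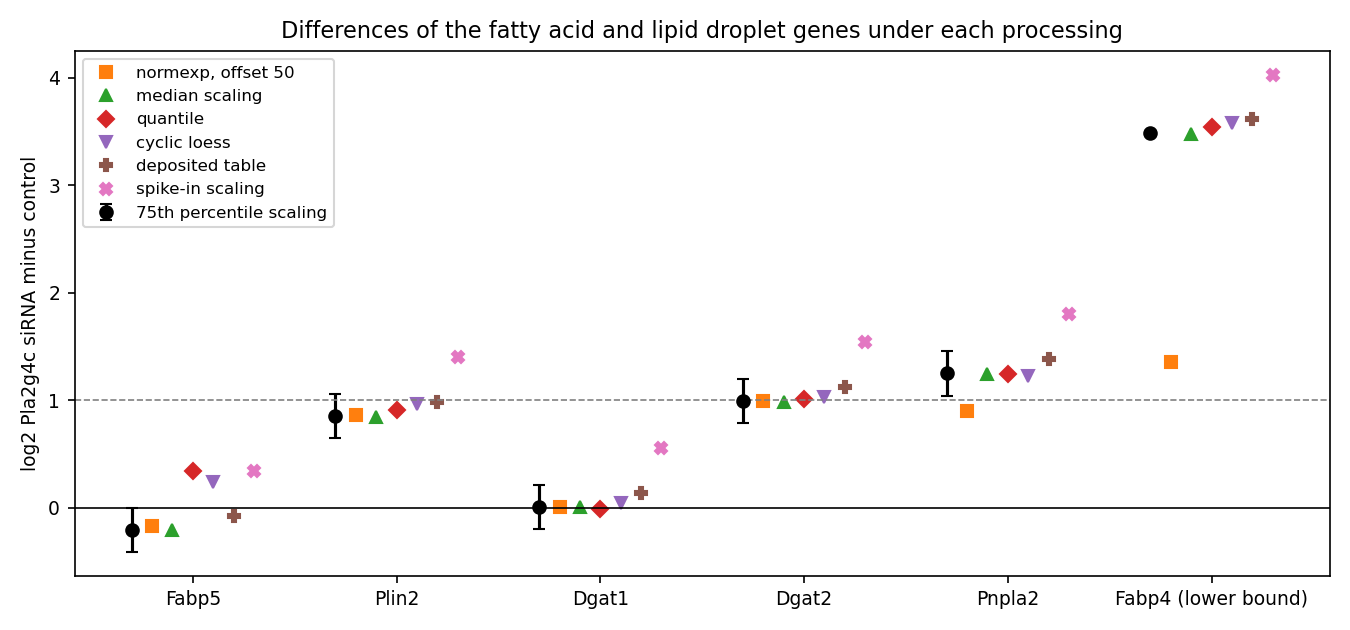
Difference of the 5 genes measured on both arrays and the lower bound of Fabp4 (vertical axis, log2) under 7 ways of correcting and scaling the arrays, with the software's error on the main value. The dashed line marks 2-fold. Plin2, Dgat2 and Pnpla2 lie above 0 under all 7, Fabp5 lies on both sides of 0, and the Fabp4 bound drops to 1.36 under normexp.

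Fabp4, Cd36, Plin2 and Pparg are also expressed by cell types other than mammary epithelium, so markers of these were examined. None of the 8 adipocyte markers was measured on both arrays. Lep, Retn, Cfd, Pck1 and Lipe had no spot well above background, and Adipoq had 1 of 2, at 11.3 and 14.02, and these on siPla2g4c alone. Cidec, described above and also in this list, likewise had 1 of 2 such spots, on siPla2g4c alone. The summed linear level of the adipocyte markers, in units of the array's 75th percentile, came to 0.0405 for control and 0.0554 for siPla2g4c, and both sums consist of spots mostly at background. That of 12 macrophage and myeloid markers came to 2.23 and 4.02, summed over probes. Aif1, with 2 probes, made up most of both sums, so they say little of the other markers. The myeloid marker Aif1 was 2.58-fold higher (1.37 ± 0.20), and of the other measured markers Lyz2 was at 0.60 ± 0.34, Csf1r at 0.09 ± 0.41, Fcer1g at -0.08 ± 0.26, Cd14 at -0.25 ± 0.20 and Cd68 at -0.39 ± 0.21, while Adgre1, Cd163, Mrc1, Ptprc and Itgam had no spot well above background. Of 8 endothelial markers 6 had no spot well above background, and Cdh5 was at -0.40 ± 0.23. The part of such cells in the Fabp4 signal was not tested.

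Of 8 mammary epithelial markers 7 were measured on both arrays, and Krt18 had no spot well above background. They lay on both sides of 0 after 75th-percentile scaling, the one scaling computed for markers. The basal keratins Krt5 and Krt14 were at -1.72 ± 0.20 and -0.97 ± 0.20 and E-cadherin, Cdh1, at -0.63 ± 0.20, while the adhesion protein Epcam was at 1.03 ± 0.20 and Krt8 at 0.86 ± 0.27. Krt19 was at -0.30 ± 0.21 and Cldn4 at 0.09 ± 0.20. Their summed level was 543 for control and 245 for siPla2g4c, and Krt5 and Krt14 made up most of both sums. The part of this sum in the droplet gene differences was not tested. Of 8 markers of secretory mammary cells, which form milk fat droplets, 6 had no spot well above background, Csn2 and Wap among them. Xdh, which takes part in milk fat secretion, was at -0.15 ± 0.20 and Csn1s1 at -0.60 ± 0.22. In the striated muscle list, relevant to Fabp3, 3 of 8 genes were measured. Tnnt2 was at 0.66 ± 0.20, Actc1 at 0.08 ± 0.20 and Mb at -0.41 ± 0.20.

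No probe could be matched to Pla2g4c, so the labels were not checked by the targeted transcript. Gene spots well above background made up 61.9% on control and 63.1% on siPla2g4c. Of the measured named genes, 263 were at least 2-fold higher and 275 lower, and 49.0% lay above 0. The authors' deposited table gave 369 and 190, with the median of all genes at 0.12, and spike-in scaling gave 1169 and 68, with that median at 0.54. A direction is thus stated against the bulk of genes.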

How the data were processed

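Intensities of 2 one-colour Cy3 arrays, 1 per group, were used. Per the file headers, the deposited intensity values are background-subtracted, detrended signals without scaling between arrays, made by version 10.10.1.1 of Agilent Feature Extraction. The submitters' processing notes give 10.10. A deposited table held these values times 1.77 (control) or 1.50, by a rule not given in the sources used here. The software's flags were used as deposited.

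Levels were log2 signal minus the array's 75th percentile. Spots with an outlier flag on either array were left out (466 and 381 carried one), spots of a probe were averaged, and a gene is the mean of its probes with all spots well above background on both arrays. Names came from RefSeq transcripts on GRCr8 (18006 of 30367 probes). The members and lists were chosen with earlier results of these data known. Named genes were the members and, per list, genes at 2-fold (otherwise the highest and lowest), bounds of at least 2-fold, and markers with signal (up to 4). Alternatives were normexp (offset 50, on median signals), median, quantile, cyclic loess and spike-in scaling (7 RNAs), the deposited table, flagged spots kept, the brightest probe, no filter, and 1.5-fold and 3-fold. Steps were tested on simulated data. R 4.3.3, limma 3.58.1, Python 3.11.15, numpy 2.4.6, pandas 2.3.3 and matplotlib 3.10.9 were used. The number of arrays limits the precision.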

Additional observations from a re-analysis of the deposited data

How the results depend on the processing

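Of 177 recomputed values, 138 stayed within the software's error, or within 1.5 times for counts, 39 moved and 0 called differences reversed. A reversal was counted only where the main value was at least 2-fold, so the changes of sign of Fabp5 are not among them. Keeping flagged spots, the brightest probe and no filter could not change the 5 measured genes, which have 1 probe each and no flagged spot. Median scaling and the deposited table each shift all genes by nearly the same amount, which is less than the error. Differences and list medians therefore could not count as moved under either, so the 138 is no measure of robustness. Under spike-in scaling Fabp5 was 0.34, Plin2 1.40, Dgat1 0.56, Dgat2 1.54, Pnpla2 1.80 and the Fabp4 bound 4.03, and the list medians became 0.17 (family of binding proteins), 0.28 (droplet coat), 0.72 (glycerolipid synthesis), 0.72 (lipolysis), 0.38 (uptake), 0.010 (scavenger receptors), 0.67 (lipoprotein lipase partners), 0.57 (PPAR receptors) and 0.63 (oxidation), a shift that is the same for every gene by construction. Normexp, whose offset of 50 compresses low signals, gave 0.90 for Pnpla2, 1.36 for the Fabp4 bound and -0.044 for lipolysis. Quantile normalization put Fabp5 at 0.34, and cyclic loess put it at 0.24. The scavenger receptor median was -0.21 without the filter on dim probes, which lets in more genes. The number of the 5 genes at 2-fold higher, 1 in the main values, was 0 under normexp, 2 under quantile normalization, cyclic loess and the deposited table, and 3 under spike-in scaling. Without the filter it was 2 of 9, since the dim genes, Fabp4 among them, are then counted. At 1.5-fold it was 3 and at 3-fold 0. All named genes at least 2-fold higher and lower numbered 116 and 154 under normexp, 1169 and 68 under spike-in scaling, and 539 and 765 without the filter. They were 784 and 929 at 1.5-fold and 85 and 65 at 3-fold. No paired analysis was possible because each group has 1 array. Fabp3, Cd36, Lpl and the control level of Fabp4 were limited by signal over background.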
